A study of Mus musculus with 2 samples.

Results

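The replication-dependent histone genes supply the protein on which newly copied DNA is wound. They were taken as every gene symbol of the series that begins with Hist1h, Hist2h, Hist3h or Hist4h, which gave 68 of 24421 symbols. The first digit names 1 of 4 gene clusters and the rest of the symbol the subclass, H1, H2a, H2b, H3 or H4. The mice were female, with a mixed (H-2b/d) F1 background in both groups, and no age or further allele was given in the labels. The study's supplement describes other strains for its mouse work, so the background is given here as labelled. NTB-GMP is 1 bulk RNA-seq library of granulocyte-monocyte progenitors (GMPs), sorted by flow cytometry from the bone marrow of mice without a tumor. 4T1-GMP is 1 library of the same sorted population from mice whose mammary tissue had been implanted with 4T1, a mouse mammary carcinoma cell line. Whether animals were pooled was not given in the sources used here. The comparison addressed how GMPs differ when a mammary tumor is present. With 1 library per group there is no replicate error, so every interval below covers counting error only. The intervals take each read as independent, which reads copied from the same molecule are not.

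Core histones H2A, H2B, H3 and H4 form the nucleosome, and linker histone H1 binds the DNA between nucleosomes. Cells make most histone protein in S phase, from clustered genes that the activator NPAT switches on. Their mRNAs are mostly without introns and end in a stem-loop bound by SLBP instead of a poly(A) tail, and are degraded quickly when DNA synthesis stops. GMPs are dividing progenitors that give rise to granulocytes and monocytes.

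The stem-loop is the feature that sets these mRNAs apart, so the forms found are shown first. A stem of 6 base pairs opening with GG and closing with CC around a loop of 4 bases was searched downstream of the stop codon in GENCODE M21 transcripts (GRCm38), with the loop opening with TT. It was found for 44 of the 68 symbols, starting 21 to 58 bases after the stop codon with a median of 31. There were 6 forms. The commonest was held by 26 members, and the next by 7 members that were all H4 genes. For the members without a match, these letters were not in the transcripts searched, and nothing follows about their mRNA. In 28 of the 44, the RefSeq gene model of GRCm38.p6 ended exactly 5 bases past the stem-loop, whereas 22 of the 44 GENCODE models ran on for more than 100 bases. Each form is printed for 1 member, 5′ to 3′ as DNA, with the stem-loop in capitals and 5 bases on either side.
Hist3h2a, chr11:58955167-58955192, plus strand: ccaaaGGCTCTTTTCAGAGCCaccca
Hist4h4, chr6:136803993-136804018, minus strand: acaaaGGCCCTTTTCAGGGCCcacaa
Hist1h3c, chr13:23745042-23745067, minus strand: aaaaaGGCTCTTTTAAGAGCCaccta
Hist2h4, chr3:96262934-96262959, minus strand: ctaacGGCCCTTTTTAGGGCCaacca
Hist1h4b, chr13:23757361-23757386, plus strand: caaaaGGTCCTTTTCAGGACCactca
Hist2h2ac, chr3:96220413-96220438, minus strand: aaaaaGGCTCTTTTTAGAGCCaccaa

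Promoters are shown for the 2 H4 genes and the H1 gene with the highest ratios of their subclasses, and for an abundant H2b gene. RefSeq windows of 300 bases, from 250 before to 50 after the start of the gene, were given for 62 of the 68 members. Both strands were searched for 4 motifs. The CCAAT box was in 85.5% of the members (53 of 62) and in 37.4% of all 32851 windows. The TATA box, searched as TATAAA, was in 56.5% of the members and in 13.6% of all windows. The octamer, searched as ATTTGCAT, was in 14 members, 7 of them H2a and 7 H2b, or 22.6% against 1.74% of all windows. A sequence known from H1 promoters, AAACACA, was in 5 of 6 H1 genes and in 14.5% of the members, against 7.18% of all windows. In H4 genes the CCAAT box was in 3 of 12. A match is a description of the letters and not of binding. The 150 bases before the start are printed with these motifs in capitals on the strand of the gene.
Hist4h4, chr6:136804432-136804581, minus strand: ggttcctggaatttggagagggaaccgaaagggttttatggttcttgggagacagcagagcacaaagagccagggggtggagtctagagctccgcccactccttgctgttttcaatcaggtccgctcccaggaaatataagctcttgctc
Hist1h4b, chr13:23756787-23756936, plus strand: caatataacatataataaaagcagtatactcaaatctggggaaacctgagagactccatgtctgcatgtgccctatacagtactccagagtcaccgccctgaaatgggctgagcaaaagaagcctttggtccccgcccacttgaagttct
Hist1h1d, chr13:23554882-23555031, plus strand: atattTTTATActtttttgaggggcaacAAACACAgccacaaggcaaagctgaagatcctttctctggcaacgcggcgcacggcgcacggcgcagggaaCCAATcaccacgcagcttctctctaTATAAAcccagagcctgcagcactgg
Hist1h2bl, chr13:21716184-21716333, minus strand: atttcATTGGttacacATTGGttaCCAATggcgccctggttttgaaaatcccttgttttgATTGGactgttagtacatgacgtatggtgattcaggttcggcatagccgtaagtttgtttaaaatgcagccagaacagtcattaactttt
Neither H4 promoter shown, from the 2 H4 genes with the highest ratios of 4T1-GMP over NTB-GMP, held any of the 4 motifs in its printed bases. Hist1h4h, at a log2 ratio of 0.11, also held none of them, so their absence was not particular to high ratios.

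The authors deposited RPKM, the reads of a gene scaled by its length and by the size of its library. The RPKM carried enough digits to recover whole reads, and the library sizes they imply were 10180365 for NTB-GMP and 30016263 for 4T1-GMP, a difference in depth of 2.95 times. A gene is called tested where its RPKM averaged 1 or more over the 2 libraries, which 10378 genes did. Ratios of 4T1-GMP over NTB-GMP are of RPKM + 0.1 and in log2, so changes of low genes are understated. Rn45s, the ribosomal RNA precursor, took 17.0% of the NTB-GMP library size and 6.98% of that of 4T1-GMP. Without its reads in the library sizes, every log2 ratio would move by -0.16, and the median log2 ratio of all tested genes from 0.05 to -0.11.

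Most histone genes were abundant in both libraries. Of the 68 symbols, 61 had a read in at least 1 library, 58 were tested, and 39 had a mean RPKM of 100 or more, including 7 of the 100 genes with the highest mean RPKM of the series. The remaining 3 with a read were below the minimum, and 7 were listed at 0 in both. The 58 tested members summed to 17310 RPKM in NTB-GMP against 21613 RPKM in 4T1-GMP. Their recovered reads summed to at least 87101 and 320014, or at least 0.856% and 1.07% of the library sizes. The 4 highest, Hist1h2bn, Hist1h2bl, Hist1h4k and Hist1h2ai, held 28.0% of the summed RPKM in NTB-GMP and 27.7% in 4T1-GMP. Levels within the class spanned from 1.38 to 1632 mean RPKM, with a median of 210.0. The members just inside the minimum were Hist1h2ba at a mean of 1.38 RPKM and Hist2h2be at 2.37, and the one just outside was Hist3h2ba at 0.285.

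**Figure D1:**
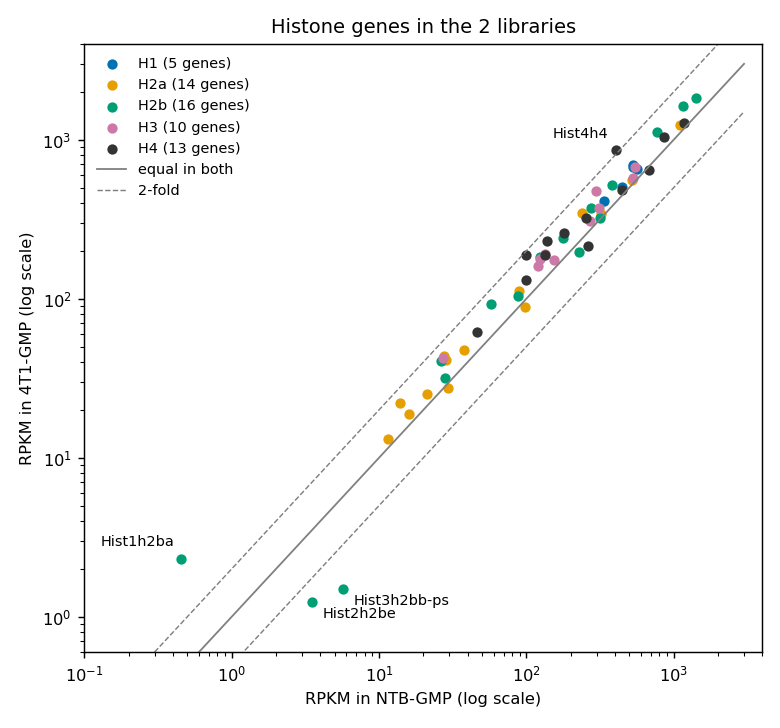
RPKM of the 58 tested histone genes in NTB-GMP (horizontal, log scale) and 4T1-GMP (vertical, log scale), 1 point per gene, coloured by subclass, with 1 library per group. Most points lie just above the line of equal RPKM, and the 4 named genes lie past the dashed 2-fold lines.

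Most histone genes were slightly higher in 4T1-GMP, and few differed by 2-fold. Of the 58, 51 were higher in 4T1-GMP (87.9%), against 54.7% of all tested genes. Their median log2 ratio was 0.34, a fold of 1.26, with quartiles of 0.17 and 0.52. The median of all tested genes was 0.05. Ratios over all genes also went with level. Among the 565 genes averaging 100 RPKM or more, the median log2 ratio was 0.24 and 80.0% were higher in 4T1-GMP, and among the 39 histone genes at that level it was 0.36, with 36 higher. The members averaging between 1 and 100 RPKM had a median of 0.33 over 19 genes, against 0.03 over 9813 genes. The share of higher members depended on the scaling: it was 45 of 58 (77.6%, against 39.1% of all genes) with library sizes that exclude Rn45s, and 39 of 58 (67.2%, against 50.6%) after quantile normalization.

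The size of the difference was not uniform across members. A total of 2 members were higher by 2-fold or more, against a background of 3.25% of all tested genes, and 2 were lower by 2-fold or more, against 4.92%. Those shares of the members were close to the background. Hist1h2ba, 1 of the 2 that were higher, reached the minimum only through 4T1-GMP, with 0.455 RPKM in NTB-GMP against 2.31 RPKM in 4T1-GMP. The other 49 members that were higher had log2 ratios between 0 and 1. The 95% Clopper-Pearson interval of the reads lay above 0 for 47 of the 58 members and below 0 for 5, while it held 0 for 6. Over all tested genes it lay above 0 for 36.3% and below 0 for 28.1%. Summed over the 58 members, the recovered reads, some of them lower bounds, gave a log2 ratio of 0.32 (0.31 to 0.33). The intervals of only 17 of the 58 held that pooled value, so the members differed by more than independent counting of reads would give. Reads that are not independent molecules, and reads split between near-identical copies, can add spread that these intervals leave out. Across the 58 genes, the Spearman correlation of mean RPKM with the log2 ratio was -0.09. Because this was bulk RNA of a sorted population, more cells in S phase and more histone RNA per cell cannot be told apart.

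**Figure D2:**
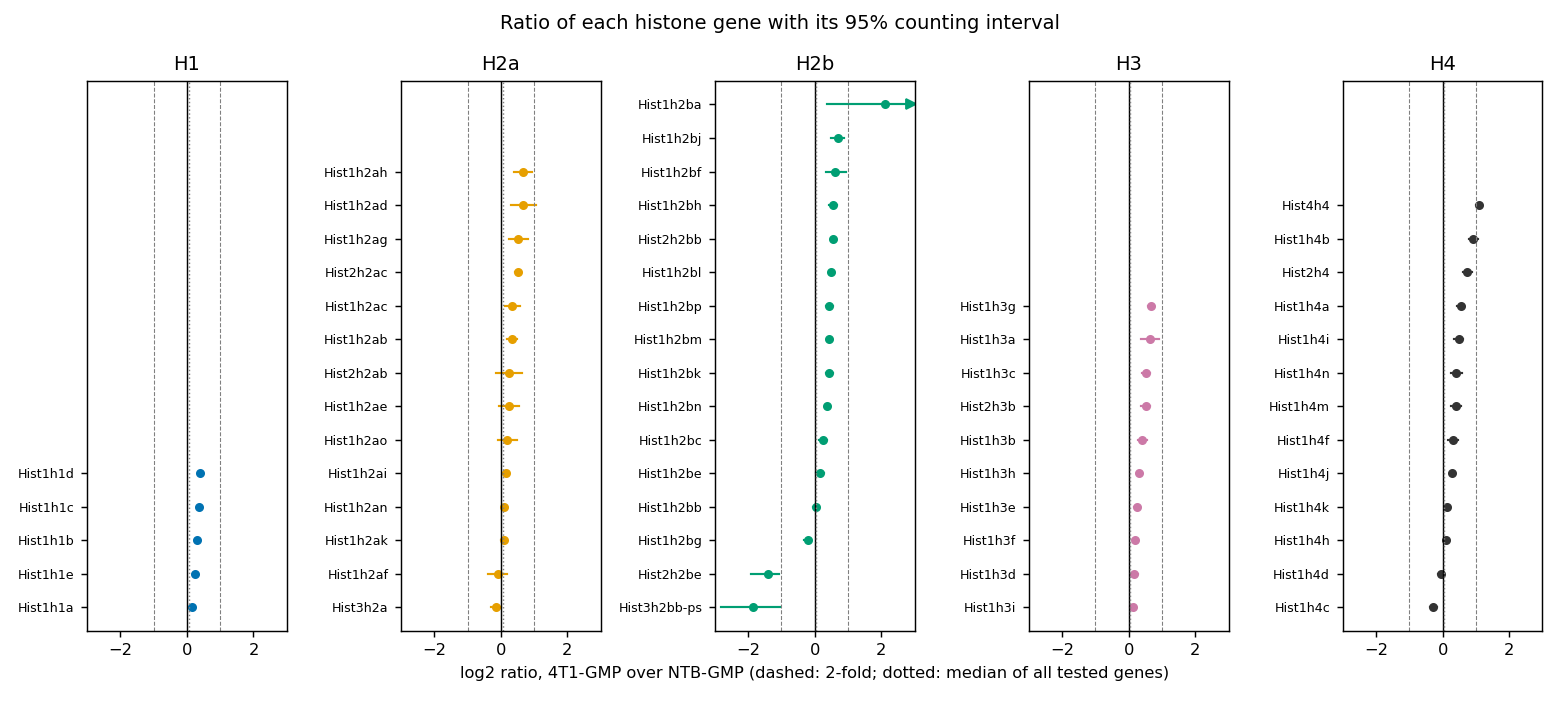
Log2 ratio of 4T1-GMP over NTB-GMP for each tested histone gene, by subclass; points are ratios of RPKM + 0.1 in log2 and lines are 95% Clopper-Pearson intervals of the reads, covering counting error only. Most points lie between 0 and 1; the interval of Hist1h2ba runs past the axis, as its arrow marks, to 5.46.

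All 5 tested H1 genes, which encode subtypes of the linker histone, were abundant, and each was slightly higher in 4T1-GMP. Hist1h1d had 530 RPKM in NTB-GMP against 698 RPKM in 4T1-GMP, a log2 ratio of 0.40 (0.35 to 0.45), the highest of the 5. Hist1h1a had 447 RPKM in NTB-GMP against 502 RPKM in 4T1-GMP, a log2 ratio of 0.17 (0.11 to 0.22), the lowest of the 5. These intervals do not overlap. Hist1h1c (528 and 677 RPKM) and Hist1h1e (560 and 658 RPKM) lay between, at log2 ratios of 0.36 and 0.23, and Hist1h1b had 336 and 411 RPKM. The direction of Hist1h1a and Hist1h1e turned after quantile normalization, to log2 ratios of -0.03 and -0.09. The sixth symbol, Hist1h1t, the testis-specific H1, was listed at 0 in NTB-GMP and had 6 reads in 4T1-GMP. The H1 median was 0.29, and the summed reads gave 0.30 (0.27 to 0.32).

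Of the 18 H2a symbols, 14 were tested, and 12 of those were higher in 4T1-GMP, with a median log2 ratio of 0.23. That was the lowest of the 5 medians on the deposited scale, but after quantile normalization it was 0.15, above H1 (0.03) and H3 (0.07), and by the mean of the list H2b was lower (0.23, against 0.27 for H2a). H2A pairs with H2B in the nucleosome. Hist1h2ai was the highest, with 1101 RPKM in NTB-GMP against 1235 RPKM in 4T1-GMP, and its log2 ratio was 0.17 (0.12 to 0.21). Hist1h2an had 518 and 558 RPKM, a log2 ratio of 0.11 (0.04 to 0.17). Hist1h2ak had 321 and 342 RPKM, a log2 ratio of 0.09 (0.01 to 0.17). The last 2 turned to -0.06 and -0.07 with library sizes that exclude Rn45s, and to -0.16 and -0.19 after quantile normalization. The largest ratios belonged to low members. Hist1h2ah had 27.7 RPKM in NTB-GMP against 43.9 RPKM in 4T1-GMP, a log2 ratio of 0.66 (0.41 to 0.93). Hist1h2ad had 14.0 and 22.2 RPKM, also a log2 ratio of 0.66 (0.31 to 1.04). Hist2h2ac, among the 4 highest of the subclass, had 240 and 344 RPKM and a log2 ratio of 0.52 (0.43 to 0.62). The 2 members that were lower were Hist3h2a, with 98.4 and 88.4 RPKM and a log2 ratio of -0.15 (-0.30 to -0.005), and Hist1h2af, with 29.4 and 27.4 RPKM and a log2 ratio of -0.10 (-0.38 to 0.19). The interval of the latter holds 0. Hist2h2ab had 15.9 and 18.8 RPKM, with an interval that also holds 0 (-0.15 to 0.64). The 4 symbols under the minimum, Hist1h2aa, Hist1h2ap, Hist2h2aa1 and Hist2h2aa2, were listed at 0 in both libraries.

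H2b was the subclass with the highest summed RPKM and the widest range of log2 ratios, from -1.85 to 2.12. Its quartiles, 0.13 and 0.55, were close to those of H4, 0.12 and 0.54. Of 19 symbols, 16 were tested, of which 13 were higher in 4T1-GMP, with a median log2 ratio of 0.43. The 2 most abundant histone genes of all were here. Hist1h2bn had 1425 RPKM in NTB-GMP against 1838 RPKM in 4T1-GMP, a log2 ratio of 0.37 (0.33 to 0.41). Hist1h2bl had 1155 and 1629 RPKM, a log2 ratio of 0.50 (0.45 to 0.54), so the intervals of these neighbours in level do not overlap. Hist2h2bb had 767 and 1117 RPKM, a log2 ratio of 0.54 (0.49 to 0.59), and Hist1h2bm had 384 and 517 RPKM, a log2 ratio of 0.43 (0.36 to 0.50). Hist1h2bj, at a lower level, had 57.9 RPKM in NTB-GMP against 93.3 RPKM in 4T1-GMP and a log2 ratio of 0.69 (0.49 to 0.89). Among the members past 2-fold, 3 were H2b genes of low level. Hist1h2ba, the testis-specific H2B, had 2 reads in NTB-GMP and 30 in 4T1-GMP, that is 0.455 and 2.31 RPKM. Its log2 ratio of 2.12 had an interval from 0.37 to 5.46. Hist2h2be had 3.49 RPKM in NTB-GMP against 1.25 RPKM in 4T1-GMP, from at least 93 and 98 reads, and a log2 ratio of -1.41 (-1.91 to -1.06). The pseudogene Hist3h2bb-ps had 5.70 and 1.50 RPKM, from 27 and 21 reads, and a log2 ratio of -1.85 (-2.82 to -1.05). With a pseudocount of 1, the log2 ratio of Hist2h2be was -0.998 and no longer past 2-fold. Of the abundant H2b members, Hist1h2bg was the one lower, with 227 RPKM in NTB-GMP against 196 RPKM in 4T1-GMP and a log2 ratio of -0.22 (-0.32 to -0.11). Hist1h2bq and Hist1h2br were listed at 0 in both, and Hist3h2ba had 2 reads in each library.

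Every tested H3 gene was higher in 4T1-GMP, 10 of 10, with a median log2 ratio of 0.36. H3 and H4 form the tetramer at the core of the nucleosome. Hist1h3g stood out at a high level, with 298 RPKM in NTB-GMP against 474 RPKM in 4T1-GMP and a log2 ratio of 0.67 (0.59 to 0.75). Hist1h3a, at 27.4 and 42.3 RPKM, had a log2 ratio of 0.63 (0.36 to 0.90). The highest by level was Hist1h3h, with 549 and 677 RPKM and a log2 ratio of 0.30 (0.24 to 0.36), which was -0.05 after quantile normalization. Hist1h3i had 532 and 578 RPKM, a log2 ratio of 0.12 (0.05 to 0.18). It turned to -0.05 with library sizes that exclude Rn45s and to -0.16 after quantile normalization. Hist1h3e had 311 RPKM in NTB-GMP against 370 RPKM in 4T1-GMP, a log2 ratio of 0.25 (0.17 to 0.33), and Hist1h3d had 155 and 174 RPKM, a log2 ratio of 0.17 (0.06 to 0.29). Both turned after quantile normalization, to -0.03 and -0.09. Hist2h3b had 125 and 177 RPKM, a log2 ratio of 0.51 (0.38 to 0.64). Of the other 2 symbols, Hist2h3c1 had 1 read in 4T1-GMP and none in NTB-GMP, and Hist2h3c2 was listed at 0 in both.

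H4 held the highest ratio among abundant histone genes. All 13 symbols were tested, and 11 were higher in 4T1-GMP, with a median log2 ratio of 0.40. Hist4h4, the sole member of cluster 4, had 406 RPKM in NTB-GMP against 857 RPKM in 4T1-GMP, from 1813 and 11293 reads. Its log2 ratio was 1.08 (1.01 to 1.15), higher than that of 97.2% of all tested genes. It came to 0.92 with library sizes that exclude Rn45s or after quantile normalization, and so under 2-fold. Hist1h4b followed with 99.3 and 189 RPKM and a log2 ratio of 0.92 (0.78 to 1.07), and Hist2h4 with 138 and 232 RPKM and a log2 ratio of 0.75 (0.61 to 0.88). The intervals of Hist4h4 and Hist1h4b overlap, and so do those of Hist1h4b and Hist2h4. Hist4h4 averaged 631 RPKM, and the H4 genes above it in mean RPKM differed less between the libraries. Hist1h4k had 1171 RPKM in NTB-GMP against 1274 RPKM in 4T1-GMP, a log2 ratio of 0.12 (0.07 to 0.17) that turned to -0.04 with library sizes that exclude Rn45s. Hist1h4j had 860 and 1044 RPKM, a log2 ratio of 0.28 (0.22 to 0.34). Hist1h4d had 676 and 648 RPKM, a log2 ratio of -0.06 with an interval that holds 0 (-0.13 to 0.01). Hist1h4c was lower, with 261 and 215 RPKM and a log2 ratio of -0.28 (-0.39 to -0.18).

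By summed RPKM of counted reads, H2b and H4 made up more of the class than H2a and H3 in both libraries. Reads of sequence shared between copies may be split or left uncounted, so the sums need not give the true share of each subclass. Hist1h2ap, Hist2h2aa1 and Hist2h2aa2 of H2a, Hist1h2bq and Hist1h2br of H2b and Hist2h3c2 of H3 share most of their sequence and were listed at 0. H1 summed to 2401 RPKM in NTB-GMP against 2946 RPKM in 4T1-GMP, H2a to 2553 and 2918, H2b to 5058 and 6688, H3 to 2523 and 3155, and H4 to 4775 and 5906. All 5 sums were higher in 4T1-GMP. H2b and H4 were the 2 highest in both libraries, while H2a stood above H3 and H1 in NTB-GMP and below both in 4T1-GMP. As shares of the class, H2b went from 29.2% to 30.9% and H2a from 14.7% to 13.5%, while H1 (13.9% and 13.6%), H3 (14.6% in both) and H4 (27.6% and 27.3%) differed by less than 0.3 percentage points. On pooled reads, the log2 ratio was 0.19 (0.16 to 0.22) for H2a and 0.39 (0.37 to 0.41) for H2b, and these intervals do not overlap. Those for H1 (0.27 to 0.32), H3 (0.29 to 0.34) and H4 (0.30 to 0.35) overlap one another. These intervals leave out the spread between members, so they do not settle whether subclasses differ. Hist1h2ai alone gave 5022 of the 12247 recovered H2a reads in NTB-GMP, and Hist1h2bn gave 6251 of the 24062 of H2b. After quantile normalization, the median log2 ratios of H2a and H2b were 0.15 and 0.18.

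**Figure D3:**
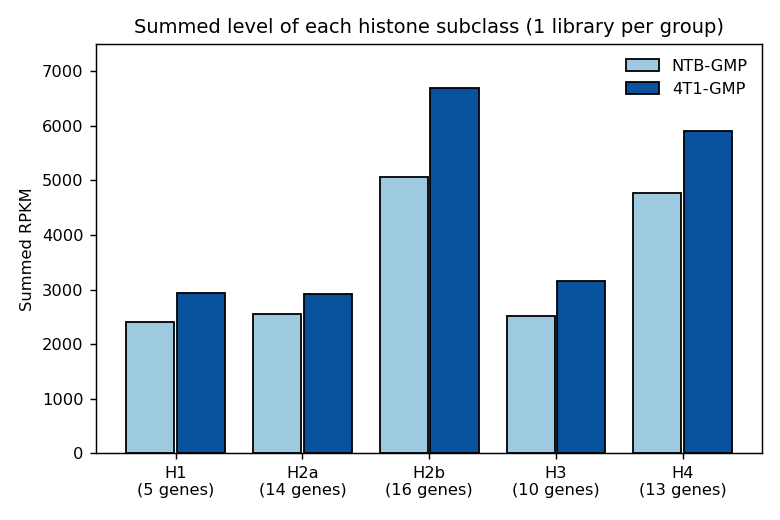
Summed RPKM of the tested histone genes, by subclass, in NTB-GMP (light bars) and 4T1-GMP (dark bars), with 1 library per group and so no error bar. Each dark bar is taller than its light bar, from 2401 and 2946 RPKM for H1 to 5058 and 6688 RPKM for H2b.

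The order of clusters 1 and 2 depended on the measure. On chromosome 13, between 21715711 and 23934913 (GRCm38.p6), cluster 1 held 54 symbols, of which 49 were tested and 45 of those were higher in 4T1-GMP, with a median log2 ratio of 0.33. Cluster 2, on chromosome 3 between 96219885 and 96270192, had 6 tested members of 10 symbols, of which 5 were higher, with a median of 0.51. On pooled reads the log2 ratio was 0.28 (0.27 to 0.29) for cluster 1 and 0.54 (0.50 to 0.57) for cluster 2. Hist2h2bb alone gave 3848 of the 6331 cluster 2 reads in NTB-GMP and 16530 of 27051 in 4T1-GMP. Neither Hist2h2bb nor Hist2h3b had a 50-base stretch found in no other gene. From which gene their reads came is therefore uncertain. By the mean log2 ratio over genes the order turned, at 0.36 for cluster 1 and 0.19 for cluster 2, which includes Hist2h2be. Both tested cluster 3 genes on chromosome 11, Hist3h2a and Hist3h2bb-ps, were lower in 4T1-GMP, and Hist4h4 on chromosome 6 had the highest ratio of the abundant members. Clusters 3 and 4 together hold 3 such genes, so no spread can be given for them.

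Within cluster 1, a gap of more than 200 kb splits the genes into 2 blocks. The first block, from 21715711 to 22043658, held 20 tested members, all of them higher in 4T1-GMP, with a median log2 ratio of 0.39. The second, from 23531044 to 23934913, held 29, of which 25 were higher, with a median of 0.32. The first block was also the more abundant, at a median of 352 mean RPKM against 164. In both blocks the summed RPKM was higher in 4T1-GMP, by a log2 ratio of 0.29 in the first and 0.25 in the second. The counts of higher members depended on the scaling. With library sizes that exclude Rn45s, Hist1h2ak, Hist1h2an, Hist1h3i and Hist1h4k of the first block turned, to -0.07, -0.06, -0.05 and -0.04. In the second block, Hist1h2bb (0.04) and Hist1h4h (0.11) had log2 ratios smaller than the shift of -0.16, and so turn with it.

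**Figure D4:**
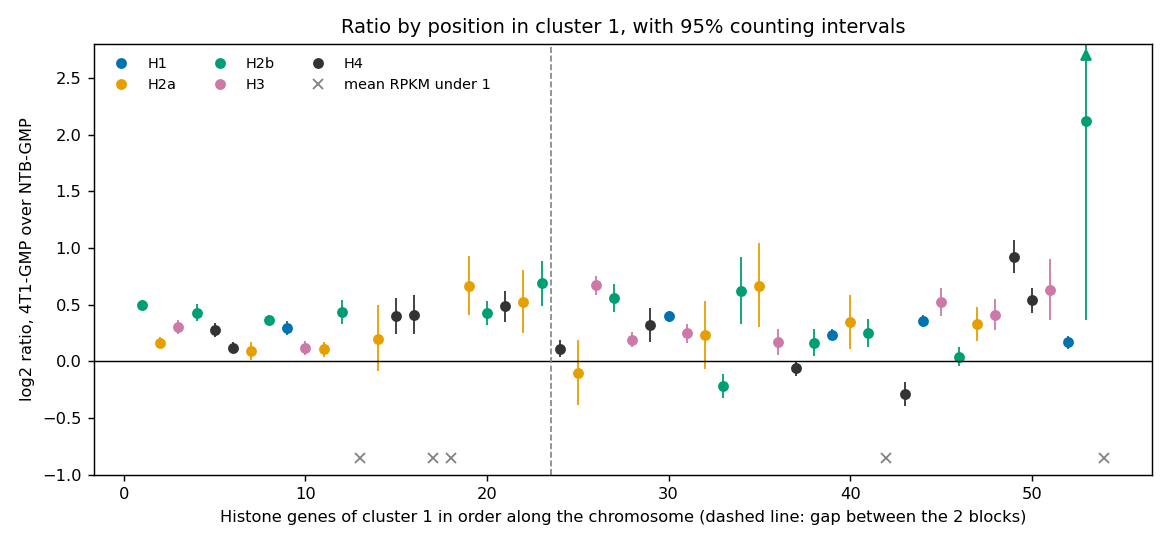
Log2 ratio of 4T1-GMP over NTB-GMP for the cluster 1 histone genes in their order along the chromosome, coloured by subclass, with 95% Clopper-Pearson intervals covering counting error only; crosses mark genes with a mean RPKM under 1, which have no ratio, and the dashed line the gap between the blocks. On the deposited scale, the points of the first block all lie above 0 and 4 points of the second lie below it. The arrow marks the interval of Hist1h2ba, which runs past the axis to 5.46.

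Among the members with a promoter window, a H2a and a H2b gene start back to back in 10 places, with overlapping windows on opposite strands. Both genes were tested in 7 of these pairs. As deposited, both were higher in 4T1-GMP in 6 of the 7, where 54.7% of all tested genes were higher. Hist1h2ak and Hist1h2an turned to -0.07 and -0.06 with library sizes that exclude Rn45s, and to -0.19 and -0.16 after quantile normalization. Their pairs, with Hist1h2bn and Hist1h2bp, were then no longer higher in both genes. The genes of a pair did not share a level: the higher was between 1.19 and 9.13 times the lower, and the H2b gene was the higher in 6 of 7. Their log2 ratios differed by a median of 0.28 and at most 0.45. The pair of Hist1h2ai (1101 RPKM in NTB-GMP) and Hist1h2bl (1155 RPKM in NTB-GMP) was the closest in level, at log2 ratios of 0.17 and 0.50. Hist1h2bg, which was lower in 4T1-GMP, is paired with Hist1h2ae, whose log2 ratio was 0.23 with an interval that holds 0 (-0.06 to 0.54). Hist2h2be, Hist3h2bb-ps and Hist1h2bc had no promoter window, so they could not be paired with their neighbours Hist2h2ac, Hist3h2a and Hist1h2ac. Hist2h2ac and Hist2h2be had log2 ratios of 0.52 and -1.41, farther apart than in any counted pair.

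Histone genes share long stretches of sequence, so reads can be split between copies or left uncounted, and how such reads were handled was not given in the sources used here. The share of 50-base stretches found in the transcripts of no other gene had a median of 50.4% over the 58 members and ran from 0 to 100%. Of the 7 members listed at 0 in both libraries, Hist2h2aa1 and Hist2h2aa2 had no such stretch, Hist1h2bq had 1.54%, Hist1h2br had 6.78% and Hist1h2ap had 6.93%. Hist2h3c2 (36.5%) and Hist1h2aa (76.2%) had more and were also listed at 0. A low share did not always go with a low value, because Hist2h2bb and Hist2h3b also had no such stretch in GENCODE and had 767 and 125 RPKM in NTB-GMP. Over the 58 members, whose values share the same 2 libraries, the Spearman correlation of this share was 0.01 with mean RPKM and -0.14 with the log2 ratio. Values of single members with near-identical copies are uncertain. Hist4h4 (91.9%), Hist2h4 (99.0%), Hist2h2be (100%) and Hist1h1d (97.7%) were among the members with mostly unshared sequence, whereas Hist1h4b had 24.1% and Hist1h2bl 17.2%.

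**Figure D5:**
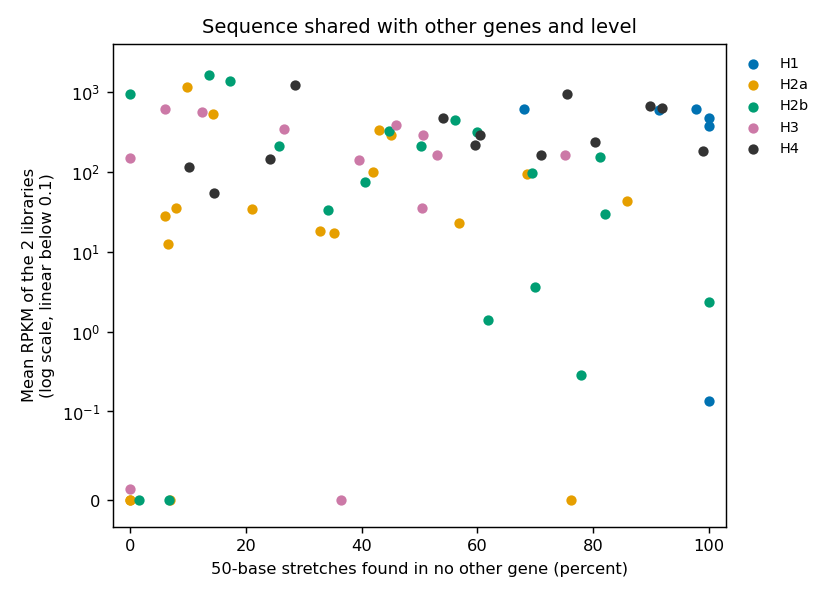
Percent of the 50-base stretches of each of the 68 histone genes that occur in the GENCODE M21 transcripts of no other gene (horizontal) and mean RPKM of the 2 libraries (vertical, log scale, linear below 0.1), coloured by subclass. Members listed at 0 lie mostly at the left, but several members with few unshared stretches have more than 100 RPKM.

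Genes that work with the histones had smaller median ratios. Of 24 tested genes for histone mRNA synthesis, 3′ end processing and decay, 18 were higher in 4T1-GMP (75%, against 54.7% of all tested genes) and none differed by 2-fold, with a median log2 ratio of 0.10. With library sizes that exclude Rn45s, 8 of the 24 were higher and the median turned to -0.06. Slbp, which binds the stem-loop, had 49.7 RPKM in NTB-GMP against 60.5 RPKM in 4T1-GMP, a log2 ratio of 0.28. Npat, the activator of the clustered genes, had 11.1 and 11.9 RPKM, a log2 ratio of 0.10. The largest ratios of the list were those of Snrpb and Snrpg, Sm proteins of the spliceosomal RNPs that are also part of the U7 RNP, at 0.43 and 0.33, and the smallest those of Lsm10, a protein particular to the U7 RNP, at -0.63 (11.9 and 7.66 RPKM), and of the decapping enzyme Dcp2, at -0.37.

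Histone variants, most of which are made outside S phase as well from polyadenylated mRNAs, differed in direction. Of 11 variant genes, 7 were higher in 4T1-GMP (63.6%, against 54.7% of all tested genes), with a median log2 ratio of 0.16. With library sizes that exclude Rn45s, 4 of the 11 were higher. H2afz, which encodes H2A.Z, had 361 RPKM in NTB-GMP against 512 RPKM in 4T1-GMP, a log2 ratio of 0.50, and H2afy2, a macroH2A gene, had 0.977 and 1.60 RPKM and the largest ratio, 0.66, from at least 19 and 92 reads, with an interval that holds 0 (-0.01 to 1.51). H2afy, the other macroH2A gene, had 472 and 333 RPKM, a log2 ratio of -0.50. H1fx, a linker variant, had 4.25 RPKM in NTB-GMP against 0.847 RPKM in 4T1-GMP, a log2 ratio of -2.20, and was the 1 member of the list past 2-fold. Of 19 histone chaperones, 12 were higher (63.2%, against the same 54.7%), with a median log2 ratio of 0.10, which turned to -0.07 with 7 higher when Rn45s was excluded. Asf1b, a chaperone of H3 and H4, had 18.9 and 32.4 RPKM, a log2 ratio of 0.78, and Asf1a had 14.8 and 20.1 RPKM, a log2 ratio of 0.44. Cabin1 and Nap1l1 were the lowest, at -0.33 and -0.27.

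Other differences between the libraries stand beside these values, and their part in the histone values was not tested. S-phase genes were higher in 26 of 34 cases (76.5%, against 54.7% of all tested genes), with a median log2 ratio of 0.21, led by Rrm2, the regulated subunit of ribonucleotide reductase, at 56.6 RPKM in NTB-GMP against 145 RPKM in 4T1-GMP (1.35), and by Ccne1, cyclin E1, at 5.32 and 10.5 RPKM (0.96). E2f1 and Pola1 were the lowest, at -0.60 and -0.35. Without Rn45s in the library sizes, 20 of the 34 were higher, with a median of 0.05. Of 13 listed RNAs without a poly(A) tail, 8 were measured. All 8 were lower in 4T1-GMP (against 54.7% of all tested genes higher), with a median log2 ratio of -1.39. Those nearest to 0 were Rpph1, with 7403 RPKM in NTB-GMP against 5724 RPKM in 4T1-GMP, and Terc, with 33.9 and 25.4 RPKM, at log2 ratios of -0.37 and -0.41. Those farthest from 0 were Rnu11 and Rnu12, at -3.84 and -3.62, Rnu11 from at least 16 reads in NTB-GMP and 3 in 4T1-GMP. Rnu73b had at least 3 reads in each library and an interval that holds 0 (-4.46 to 1.34). Vaultrc5 had at least 25 and 21 reads. Whether RNA was selected for poly(A) tails was not given in the sources used here.

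The sorted population carried the markers of GMPs in both libraries. The 8 GMP markers summed to 10568 RPKM in NTB-GMP against 16226 RPKM in 4T1-GMP. Of the 8, 5 were higher in 4T1-GMP, where 54.7% of all tested genes were higher. The 5 encode granule proteins or, for Ms4a3, a membrane protein of these progenitors: Mpo (5162 and 5625 RPKM), Elane, Prtn3, Ctsg and Ms4a3, at log2 ratios of 0.12, 0.66, 1.24, 1.11 and 1.35. That of Mpo is smaller than the shift of -0.16 from leaving Rn45s out of the sizes, and so turns with it. The 3 that were lower encode surface proteins by which GMPs are defined, Cd34 at 154 and 59.4 RPKM, Kit at 78.5 and 49.1 RPKM and Fcgr3 at 53.1 and 28.6 RPKM, at log2 ratios of -1.37, -0.67 and -0.89. All 11 markers of maturing neutrophils were higher by 2-fold or more (against 3.25% of all tested genes), with sums of 512 and 4055 RPKM. Ly6g, Mmp8 and Mmp9 had under 1 RPKM in NTB-GMP, from at least 4, 13 and 19 reads, and reached the minimum only through 4T1-GMP. The monocyte and dendritic markers summed to 188 and 80.9 RPKM, with 7 of 8 tested genes lower (against 54.7% of all tested genes higher). The stem and early progenitor markers summed to 22.5 and 7.78 RPKM. The erythroid markers summed to 7.43 and 1.22 RPKM with 6 globin genes listed at 0 in both, the B cell markers to 15.5 and 12.5 RPKM, nearly all from Cd79b, and the T and NK cell markers to 191 and 338 RPKM, nearly all from Nkg7, with Cd3g listed at 0 in both. Their part in the histone values was not tested.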

How the data were processed

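Bulk RNA-seq was available for 1 library of NTB-GMPs and 1 of 4T1-GMPs. The authors deposited RPKM per gene symbol. The submitters' processing notes name CASAVA 1.8.2, cutadapt 1.2.1, TopHat2 2.0.13, Picard 1.97, HTSeq 0.6.1, edgeR 3.12.1 and mm10, without settings. RNA selection, read length and strand handling are not given in the sources used here.

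Whole reads were recovered from ratios of the deposited RPKM, within 1e-11 for nearly all of the 13182 genes above 0 in both libraries. The library size came from 124 genes whose RefSeq length fitted exactly, and genes seen in 1 library only gave 1 read as the unit (27 genes in NTB-GMP, 32 in 4T1-GMP). The size was not a whole number and may be a scaled total. For 19 members the RefSeq length was not met and the smallest whole length was used, so their reads are lower bounds and their intervals at widest. Recovery was tested on simulated data.

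With 1 library per group no test was made. A gene counted as past 2-fold at a log2 ratio of at least 1 or at most -1. Named in each subclass were the 4 highest levels, the 2 largest and 2 smallest ratios, and all tested members of clusters 2, 3 and 4. Of each list of pathway genes, the 2 largest and 2 smallest ratios were named, with Slbp and Npat. Other members were named to account for them, or after their values were seen, and marker genes after their values were seen. The members and lists were chosen with earlier results of these data known. Alternatives were a pseudocount of 1 or 0.01, a minimum of 5 mean RPKM or of any value above 0, library sizes without Rn45s with and without the histone reads, quantile normalization, the mean of a list, and lists without pseudogene and germ-line members. The medians of the other gene lists were recomputed without Rn45s and after quantile normalization, a choice made after seeing the data. Positions are of GRCm38, the assembly that mm10 names. Python 3.11.15 with numpy 2.4.6, pandas 2.3.3, scipy 1.17.1 and matplotlib was used.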

Additional observations from a re-analysis of the deposited data

How the results depend on the processing

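With library sizes that exclude Rn45s, the median log2 ratio of the histone genes was 0.173 (0.174 without the histone reads as well) and 0.135 after quantile normalization, against 0.336. In the same order, the 3 alternatives gave 0.127, 0.129 and 0.0289 for H1, 0.267, 0.268 and 0.179 for H2b, 0.193, 0.195 and 0.0674 for H3, 0.163, 0.164 and 0.116 for cluster 1, 0.351, 0.353 and 0.252 for cluster 2, and 0.157, 0.158 and 0.0998 for the log2 ratio of summed RPKM. For H2a they gave 0.0713, 0.073 and 0.15, and for H4 the values were 0.239 without Rn45s and 0.156 after quantile normalization. Each kept its direction. Members higher by 2-fold or more numbered 1 instead of 2 in all 3 of these alternatives and with a minimum mean RPKM of 5. Members lower by 2-fold or more numbered 1 with a pseudocount of 1 and 0 with a minimum of 5. The mean in place of the median gave 0.229 for H2b and 0.19 for cluster 2, and the minimum of 5 left 1 gene in cluster 3, at -0.155. Directions of named members turned under scaling only. Without Rn45s in the library sizes these were Hist1h2ak (-0.0737), Hist1h2an (-0.0568), Hist1h3i (-0.0455) and Hist1h4k (-0.0424), and without the histone reads as well -0.072, -0.0551, -0.0438 and -0.0407. After quantile normalization they were Hist1h1a (-0.0261), Hist1h1e (-0.0903), Hist1h2ak (-0.192), Hist1h2an (-0.16), Hist1h3d (-0.0907), Hist1h3e (-0.0301), Hist1h3h (-0.0451) and Hist1h3i (-0.161). Medians of the lists of related genes were recomputed as well, a choice made after seeing the data. They turned to -0.000461 and -0.131 for the histone variants, -0.0627 and -0.0271 for the genes of histone mRNA synthesis, processing and decay, and -0.0677 and -0.121 for the chaperones, without Rn45s and after quantile normalization in that order, while the S-phase genes kept 0.0491 and 0.0253. The cause was not tested. No paired analysis was possible because there was only 1 library in each group, and no replicate could be left out. Depth limits the members with few reads, such as Hist1h2ba and Hist3h2bb-ps.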
